A study of Mus musculus with 2 samples.

Results

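The genes described here are 35 classical type I interferon-stimulated genes, a list of antiviral effectors and regulators taken by name, and followed probe by probe in glomerular RNA of mice with pristane-induced lupus nephritis. Gene probes were named through their RefSeq accession, and 32 of the 35 genes had a matched probe (42 probes, printed in 51 spots), against 20659 named genes with a probe on the whole array. No probe was matched to Mx1, Mx2 or Ddx60, which were not analysed here. A further gene, Epsti1, was well above background on 1 array only, so 31 members were measured on both arrays, of 18239 named genes measured on both.

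The mutant group was podocyte-specific Sirpa knockout mice (Sirpa-/-), which lack the inhibitory receptor SIRPα in the epithelial cells of the glomerular filter, and the other group was wild type (WT) mice. All mice were male and 8 months old, and both groups carried the same disease model: 1 intraperitoneal injection of 0.5 ml of pristane, an oil that sets off lupus-like autoimmunity, followed by 4 months of observation. The labels name neither the driver of the podocyte deletion nor the number of animals behind each RNA, and no mice without pristane were analysed here. Each group had 1 one-colour Agilent array, so there is no replicate check, no p-value is given, and every value below is a difference between these 2 arrays.

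Sirpa itself had a scaled signal of 15616 on the array labelled Sirpa-/- and 10043 on the WT array, a 1.55-fold higher signal that goes against the label; whether its only probe lies inside the deleted part is not known, and other glomerular cells keep the gene. The files do not settle whether the labels were exchanged, which would turn every sign given below. Groups are therefore called by their labels. The series text speaks of podocytes and the labels of glomeruli. All 8 podocyte, 7 endothelial and 5 mesangial markers looked at were well above background on both arrays, as were all 6 proximal tubule markers, and the arrays are called glomerular RNA. Here fewer cells of a type and less RNA per cell cannot be told apart.

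As background, type I interferons (the interferon alpha family and interferon beta) bind the receptor IFNAR1/IFNAR2 on almost any nucleated cell. The kinases JAK1 and TYK2 then activate STAT factors, which join IRF9 and bind the interferon-stimulated response element (ISRE) in front of the target genes. The products block viral entry, RNA translation and replication, and a raised level of these transcripts in blood and kidney is a hallmark of lupus; pristane-treated mice are a model in which this pathway is known to be active.

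The promoters of the members were searched for exact matches to that element close to the start. Of the 35 genes, 24 had a window of 250 bases before to 50 bases after a start in the RefSeq table of GRCm38.p6. The ISRE was searched on both strands as GAAA, any 2 bases and GAAA, and 10 of the 24 genes (41.7%) held at least 1 match, against 3.99% of all 27025 genes with a window. The STAT dimer element (GAS) was searched as TTCNNNGAA, which reads the same on both strands, and was found in 7 of the 24 genes (29.2%), against 9.55% of all genes. The motifs can share bases, as they did in the windows of Ifitm3 and Bst2. A match is a string of letters and was not tested as a binding site. The 160 bases before the start are given for Isg15, with 3 overlapping matches, for Ifit1 and Ifit3, with 2 separate matches each, for Bst2, with 2 overlapping matches, for Rsad2, with 1, and for Ifi44, the member with the highest difference and no match in its window. Capitals mark the ISRE matches, read 5′ to 3′ in the gene's direction on build GRCm38.p6.
Isg15 (chr4:156200819-156200978, minus strand): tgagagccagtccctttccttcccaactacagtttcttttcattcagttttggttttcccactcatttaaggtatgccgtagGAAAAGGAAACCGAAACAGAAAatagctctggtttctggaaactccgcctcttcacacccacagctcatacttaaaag
Ifit1 (chr19:34640729-34640888, plus strand): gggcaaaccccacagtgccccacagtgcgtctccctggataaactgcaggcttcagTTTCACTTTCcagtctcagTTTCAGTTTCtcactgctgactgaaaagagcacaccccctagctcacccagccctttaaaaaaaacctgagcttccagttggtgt
Ifit3 (chr19:34583369-34583528, plus strand): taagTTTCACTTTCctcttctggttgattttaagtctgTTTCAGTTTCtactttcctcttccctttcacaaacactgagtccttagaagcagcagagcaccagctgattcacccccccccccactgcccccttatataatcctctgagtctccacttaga
Bst2 (chr8:71537473-71537632, minus strand): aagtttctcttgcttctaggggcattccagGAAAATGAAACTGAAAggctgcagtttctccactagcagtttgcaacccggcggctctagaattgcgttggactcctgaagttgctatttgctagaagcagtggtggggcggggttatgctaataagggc
Rsad2 (chr12:26456453-26456612, minus strand): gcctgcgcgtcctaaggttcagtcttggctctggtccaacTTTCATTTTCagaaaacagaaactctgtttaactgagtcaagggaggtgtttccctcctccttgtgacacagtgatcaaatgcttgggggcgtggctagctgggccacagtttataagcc
Ifi44 (chr3:151749911-151750070, minus strand): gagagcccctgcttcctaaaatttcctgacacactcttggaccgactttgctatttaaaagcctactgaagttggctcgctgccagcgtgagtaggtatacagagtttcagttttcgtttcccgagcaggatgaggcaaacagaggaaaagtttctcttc

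Counting from the start base as 0, the matches of Ifit1 began at -104 and -85 and those of Ifit3 at -156 and -122. In both genes the matches read TTTCACTTTC and then TTTCAGTTTC. The Isg15 matches began at -78, -72 and -66, and that of Rsad2 at -120. Eif2ak2, the member with the lowest difference, held a match that began 18 bases after its start.

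The interferon-stimulated genes as a group differed little between the arrays. Their log2 difference (array labelled Sirpa-/- minus WT array) had a median of 0.03 over the 31 measured members, beside 0.0014 over all 18239 genes, and 17 of the 31 (54.8%) lay above 0, beside 50.2% of all genes. With spike-in scaling, which moved the median of all genes to 0.08, 27 members lay above 0 but 17 above that median. No member reached a difference of 2-fold, neither higher (0 of 31, beside 1.56% of all genes) nor lower (0 of 31, beside 1.67%). At 1.5-fold, 2 members were higher (6.45%, beside 4.34% of all genes) and 0 were lower (beside 5.27%). The members lay between -0.42 and 0.76, with an SD of 0.26. The central 95% of all genes ran from -0.84 to 0.79, a range that dim genes widen. Since 1 member makes 3.23% of the list, these shares are close to the background of the array. The mean and quartiles of the members lay somewhat higher. Their mean was 0.09, beside -0.005 for all genes, and their quartiles were -0.05 and 0.24, beside -0.15 and 0.15. With the mean or the median of a gene's probes, 20 of the 31 lay above the median of all genes.

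Most differences were smaller than the error that the scanner software assigns to them. The scanner software's error model gave an error of 0.20 (log2) to the difference of nearly every member. Of the 31 members, 20 lay within 1 such error of 0 and 8 between 1 and 2. The same shares were not counted over all genes, so these counts are not read as particular to the members. Only 3 members lay more than 2 such errors from 0: Ifi44 and Zbp1 on the higher side (2 of 31, beside 6.72% of all genes) and Eif2ak2 on the lower side (1 of 31, beside 8.16%). The probe of Ifitm3 was printed 10 times, and its single spots gave differences from 0.01 to 0.22, with a mean of 0.09 and an SD of 0.06. Over 360 measured probes printed 10 times the median SD of single-spot differences was 0.07, which is the spread within a pair of arrays and holds no animal or labelling error. The software's error was larger than this spread and nearly the same for members of very different signal. It is thus a modelled yardstick and not a measured error. In the following, signals are scaled so that the 75th percentile of each array is 1000, and a gene with several probes is represented by the brightest. Signals of different genes come from different probes and are not compared with each other.

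**Figure D1:**
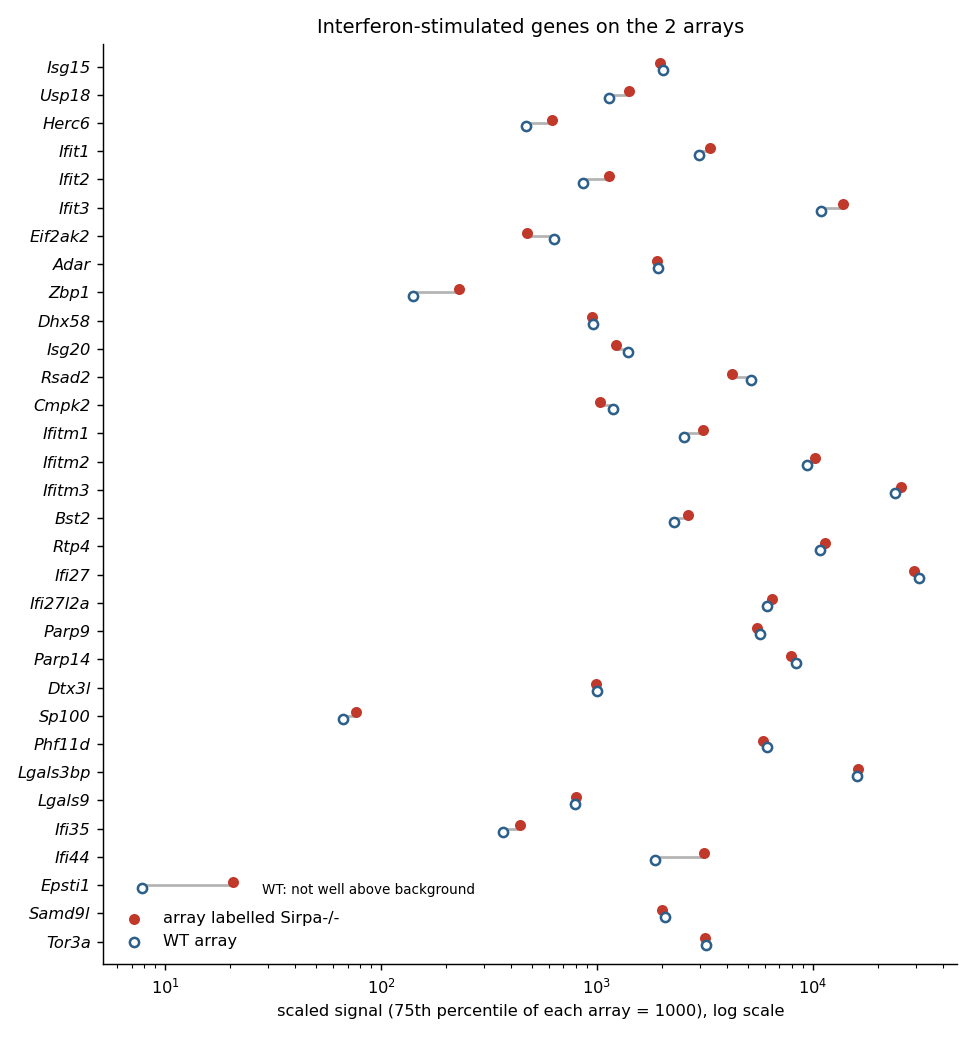
Scaled signal (log axis, 75th percentile of each array set to 1000) of 32 interferon-stimulated genes on the array labelled Sirpa-/- (filled) and on the WT array (open), 1 array each, in the order of their roles. The symbols of most genes touch; Ifi44, Zbp1 and Epsti1 are the widest pairs, with the array labelled Sirpa-/- to the right, and the WT signal of Epsti1 was not well above background.

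ISG15 is a ubiquitin-like protein that is conjugated to new proteins in interferon-treated cells, and USP18 removes it and also damps signalling at IFNAR2. Isg15 had a scaled signal of 1973 on the array labelled Sirpa-/- and 2022 on the WT array, a difference of -0.04, and its other probe gave 0.03. Usp18 had 1416 on the array labelled Sirpa-/- and 1144 on the WT array (0.31). Herc6, the main ISG15 ligase of mice, had 619.6 and 471.1 in the same order (0.40), and 0.14 on its other probe. Isg15 differed by less than 1 scanner error, and Usp18 and Herc6 were higher by less than 2 scanner errors.

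The IFIT proteins bind viral RNA that lacks the host's cap marks and stall its translation. Ifit1 had 3362 on the array labelled Sirpa-/- and 2966 on the WT array (0.18). Ifit2 had 1137 against 858.4 (0.41), and Ifit3 13836 against 10977 (0.33). All 3 were higher on the array labelled Sirpa-/-, Ifit1 by less than 1 scanner error and Ifit2 and Ifit3 by 1 to 2. The genes lie in 1 cluster on chromosome 19, with Ifit1bl1, Ifit3b and Ifit1bl2 between Ifit3 and Ifit1 in the annotated order. Ifit3b, a near copy of Ifit3 whose probes may read both genes, gave 0.31 and 0.28 on its 2 probes. Ifit1bl1 was dim, with 31.4 on the array labelled Sirpa-/- and 27.2 on the WT array (0.21), and Ifit1bl2 gave -0.12. Both lay within 1 scanner error of 0.

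Among the sensors and processors of nucleic acids the values went both ways. Zbp1, which senses Z-form nucleic acid and can start necroptosis, had 229.2 on the array labelled Sirpa-/- and 140.1 on the WT array, 1.64-fold higher (0.71), and its dimmer probe gave 0.51 at 25.2 and 17.7. Eif2ak2 (PKR), the kinase that stops translation on double-stranded RNA, had 472.5 on the array labelled Sirpa-/- and 632.8 on the WT array, 1.34-fold lower (-0.42). Zbp1 lay above 96.9% of all measured genes and Eif2ak2 above 8.68%. The other members of the group were closer to 0. Adar, which edits adenosine in double-stranded RNA and keeps it from the sensors, had 1899 and 1929 on its brighter probe (-0.02), with the array labelled Sirpa-/- first, and 0.25 on its other probe. Dhx58 (LGP2), a helicase that tunes the RNA sensor MDA5, had 950.8 and 955.8 in that order (-0.01). The exonuclease gene Isg20 had 1228 and 1400 in that order (-0.19), and -0.05 on its other probe.

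Rsad2 encodes viperin, which makes a chain-terminating nucleotide, and Cmpk2 encodes a mitochondrial nucleotide kinase that supplies its substrate. The genes are direct neighbours on chromosome 12. Rsad2 had 4239 on the array labelled Sirpa-/- and 5190 on the WT array (-0.29). Cmpk2 had 1033 on the array labelled Sirpa-/- and 1189 on the WT array (-0.20). Both were lower on the array labelled Sirpa-/- on these probes, by 1 to 2 scanner errors for Rsad2 and by less than 1 for Cmpk2. The dimmer Cmpk2 probe pointed the other way, with 111.3 on the array labelled Sirpa-/- and 85.6 on the WT array (0.38), so no direction can be given for Cmpk2.

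The membrane proteins of the list differed by 0.29 at most, and 6 of the 7 lay above 0, beside 50.2% of all genes. Only Ifitm1 and Bst2 lay more than 1 scanner error from 0. The IFITM proteins stop viruses from fusing with the endosomal membrane, and their genes are neighbours on chromosome 7, with sequences so alike that a probe may read more than 1 of them. Ifitm1 had 3105 on the array labelled Sirpa-/- and 2544 on the WT array (0.29), Ifitm2 10304 against 9463 (0.12), and Ifitm3 25603 against 23998 (0.09). Bst2 (tetherin), which holds budding virus at the cell surface, had 2648 against 2274 (0.22). Rtp4, a receptor-transporting protein with antiviral activity, had 11391 against 10773 (0.08). Ifi27 and Ifi27l2a, neighbours on chromosome 12 that encode small membrane proteins, gave -0.07 (29524 against 31003) and 0.08 (6499 against 6161). The 3 Ifitm genes were higher on the array labelled Sirpa-/- by unequal amounts, all within 2 scanner errors.

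PARP9 and DTX3L form a complex that adds ADP-ribose to ubiquitin, and PARP14 is a mono-ADP-ribosyl transferase; the 3 genes are direct neighbours on chromosome 16. Parp9 had 5519 on the array labelled Sirpa-/- and 5691 on the WT array (-0.04), Parp14 7964 against 8342 (-0.07), and Dtx3l 987.9 against 1006 (-0.03). These genes lay within 0.07 of 0. The dim second probe of Dtx3l gave 0.35 at 16.1 and 12.7, with a scanner error of 0.28.

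The remaining members held the highest difference of the list. Ifi44, which encodes a cytoplasmic protein that binds the chaperone FKBP5 in human cells and damps interferon signalling there, had 3131 on the array labelled Sirpa-/- and 1855 on the WT array, 1.69-fold higher (0.76, above 97.3% of all measured genes). Its direct neighbour on chromosome 3, the paralogue Ifi44l, was well above background on the array labelled Sirpa-/- only, with 30.3 there and 1.83 on the WT array. Set against the lowest signal well above background on the WT array (5.81), Ifi44l was 5.22-fold higher. Signals not well above background can exceed 5.81, so this is not a strict bound. Epsti1, an interferon-induced gene first described in breast epithelium next to stroma, was dim too. It had 20.6 on the array labelled Sirpa-/- and 7.81 on the WT array, where it was not well above background. The ratio of these signals was 2.64, which is not a bound. The values of Ifi44l and Epsti1 rest on 1 dim probe each, and a gene well above background on 1 array alone can only be higher there, so they add nothing to the direction of Ifi44.

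The others of this group differed less. Ifi35, whose product pairs with NMI, had 441.5 on the array labelled Sirpa-/- and 368.5 on the WT array (0.26). Samd9l, an antiproliferative and translation-blocking factor, gave -0.06 and -0.02 on its probes, and the torsin gene Tor3a gave -0.02 and 0.16. Sp100, a component of nuclear PML bodies, had 76.2 on the array labelled Sirpa-/- and 66.8 on the WT array (0.19), and Phf11d had 5912 against 6170 (-0.06). Lgals3bp, a secreted glycoprotein that binds galectin-3, gave 0.03 on each of its probes, and Lgals9, which encodes galectin-9, gave 0.01 at 797.3 and 792.4.

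**Figure D2:**
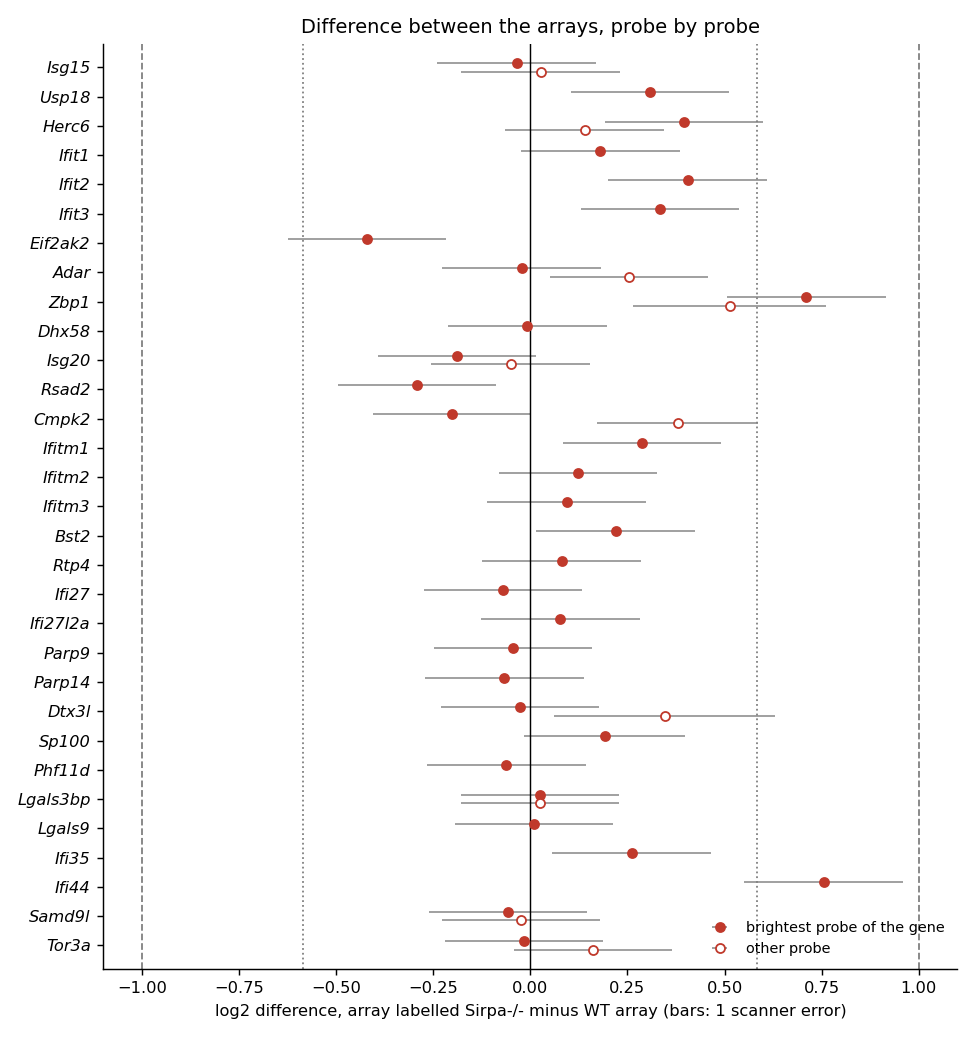
Log2 difference of each measured probe, array labelled Sirpa-/- minus WT array, with bars of 1 scanner error; filled symbols are the brightest probe of a gene and open symbols other probes. Dotted lines mark 1.5-fold and dashed lines 2-fold. Ifi44 (0.76) and the brighter Zbp1 probe (0.71) lie past the dotted line, Eif2ak2 (-0.42) is lowest, and the Cmpk2 probes point in opposite directions.

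Agreement between probes of a gene was limited. Of the 10 members with more than 1 measured probe, 5 had the same sign on all of them (50%), beside 59.2% of 4561 such genes on the array. The median distance between probes of a gene was 0.19 for the members and 0.20 for all genes, and the widest of the members was 0.58, for Cmpk2. The dimmer probe gave the higher difference in Adar, Cmpk2, Dtx3l, Isg15, Isg20, Samd9l and Tor3a, and the lower one in Herc6 and Zbp1. Most members were bright. When the measured genes were divided by signal into 4 bins of equal size, the members numbered 0 in the dimmest bin, 2 in the next (Zbp1 and Sp100), 15 in the third and 14 in the brightest. The SD of all genes' differences was 0.52 in the dimmest bin and 0.26 in the brightest, and in the third bin, which holds Ifi44, the central 95% of genes lay between -0.69 and 0.57. Ifi44 lay outside that range, and Eif2ak2, in the same bin, inside it. Zbp1 lay inside the central 95% of the second bin, -0.92 to 0.84.

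**Figure D3:**
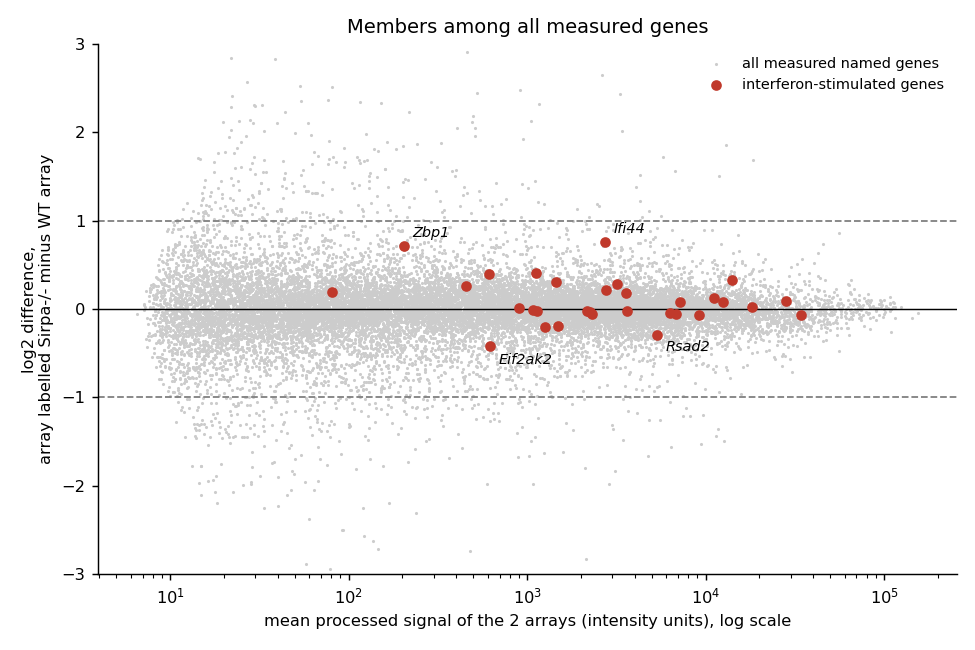
Log2 difference (array labelled Sirpa-/- minus WT array) against the mean processed signal of the arrays (log axis) for all 18239 measured named genes (grey) and the 31 members (red); 21 genes lie outside the plotted range of 3 in either direction. Dashed lines mark 2-fold. All members lie between the dashed lines, and Ifi44, Zbp1, Rsad2 and Eif2ak2 are named.

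The presence of an exact ISRE match did not separate the members, and variants of the string were not searched. The 9 measured genes with a match had a median difference of 0.09, from -0.42 to 0.33, with 6 above 0, and the 13 measured genes with a window but no match had a median of 0.03, from -0.20 to 0.76, with 7 above 0. The ranges overlap. Isg15, with 3 matches, gave -0.04, and Ifi44, with none in this window, gave 0.76.

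The rest of the pathway was looked at in lists of ligands, receptors, transducers and other targets, whose counts stand beside the all-gene shares given above (50.2% above 0, and 4.34% higher and 5.27% lower by 1.5-fold). Ligand signals were low: Ifnb1 had 7.21 on the array labelled Sirpa-/- and 6.88 on the WT array (0.07), close to the lowest signals well above background (5.60 and 5.81). The 14 measured ligand genes had a median of 0.09, with 9 above 0. The largest values were 0.96 for Ifnl3, -0.91 for Ifnab and 0.84 for Ifng, but the second probes of Ifnl3 and Ifnab gave 0.23 and 0.42, and the interferon alpha genes are near copies that a probe may not tell apart. The receptor subunit Ifnar1 had 1959 and 2173 (-0.15), with the array labelled Sirpa-/- first, and 0.16 and 0.31 on its dimmer probes, while Ifnar2 had 6477 and 6220 (0.06). Ifnlr1, the subunit specific to interferon lambda, had 50.9 on the array labelled Sirpa-/- and 110.7 on the WT array, 2.17-fold lower (-1.12), and the interferon gamma receptor gene Ifngr1 gave 0.27. Of the 6 receptor genes Ifnlr1 alone passed 1.5-fold.

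The 6 signal transducers had a median of 0.08. Stat2 gave -0.11, Irf9 0.24 and Tyk2 0.15, and 0 of the 6 passed 1.5-fold. All 6 interferon regulatory factors lay above 0, with a median of 0.23. Irf7, the factor that amplifies interferon alpha production and is itself interferon-induced, had 120.4 on the array labelled Sirpa-/- and 83.3 on the WT array (0.53), Irf8 gave 0.34 and Irf3 0.29. Among negative regulators, Socs3, which is induced by STAT3-activating cytokines, was 2.08-fold higher, with 7182 on the array labelled Sirpa-/- and 3449 on the WT array (1.06), while Socs1, a brake on interferon receptors, gave -0.04. The phosphatase gene Ptpn2 gave -0.29, but 0.21 and -0.002 on its dimmer probes, and the IRF2 partner gene Irf2bp2 gave 0.25 and 0.24. Of 13 nucleic acid sensors and adaptors 1 passed 1.5-fold, the endosomal Toll-like receptor gene Tlr8, at dim signals of 15.5 on the array labelled Sirpa-/- and 7.06 on the WT array (1.14). Tlr7, the receptor for single-stranded RNA, gave 0.52, and Tbk1, the kinase that activates IRF3, gave 0.33.

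Other interferon targets were described in 4 lists, and no difference between a list and the members was tested. The oligoadenylate synthetase list had a median of 0.28 over 11 genes, with 9 above 0 and 2 at least 2-fold higher, beside 1.56% of all genes. These were Oas2, with 438.2 on the array labelled Sirpa-/- and 188.0 on the WT array (1.22), and Oas1g (2.11). Oas1g was dim, with 36.4 and 8.41 in that order, and its other probe gave 0.32 at 9.78 and 7.86. The lowest of the list was Oas1d (-0.44). The interferon gamma targets had a median of 0.23 over 16 genes, with 13 above 0 and 2 past 1.5-fold. These were the immunity-related GTPase gene Irgm2 (0.82) and the ubiquitin-like modifier gene Ubd (0.77), followed by the GTPase gene Tgtp1 (0.57). Ubd was dim, with 26.8 on the array labelled Sirpa-/- and 15.7 on the WT array. The 19 measured further type I targets had a median of 0.14, with 11 above 0 (0.08 with the mean of a gene's probes, where the members had 0.09), and included Slfn8 (0.75, but -1.35 on its other probe), Tent5a (0.63 and 0.93) and Xaf1. Xaf1 gave -5.08 on one probe and 5.25 on the other, so that no direction can be given. Slfn5 was well above background on the array labelled Sirpa-/- only, 4.41-fold higher with its WT signal raised to the lowest one well above background. Paralogues of the members had a median of -0.02 over 19 genes, with 8 above 0, and ranged from the galectin gene Lgals1 (-0.74) to Parp11 (0.52), with Lgals3 at -0.42.

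**Figure D4:**
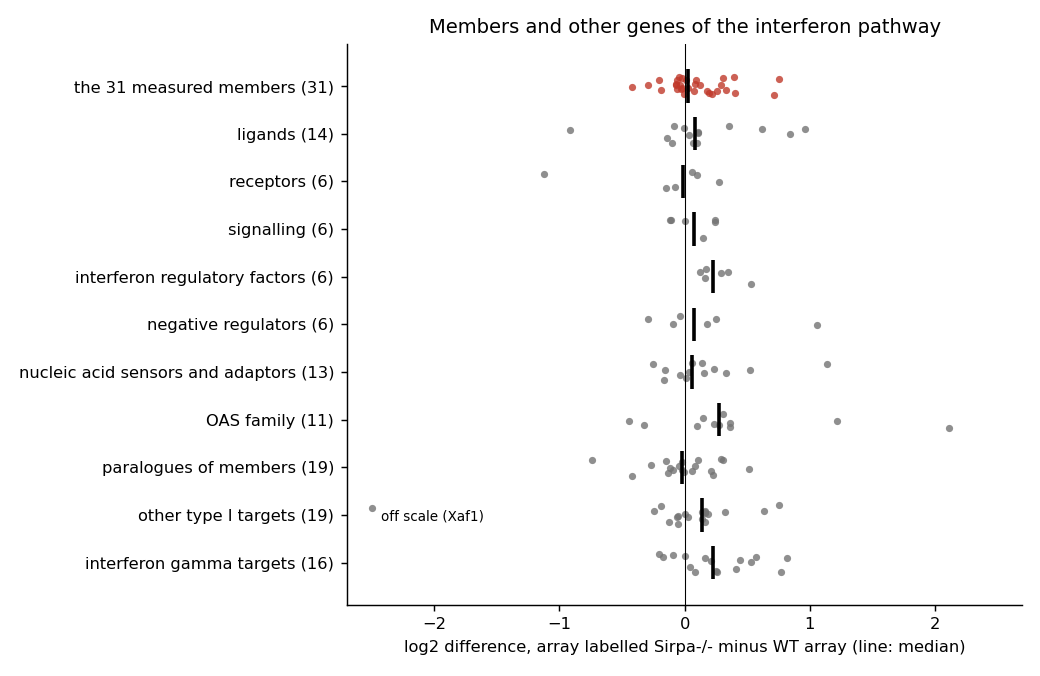
Log2 difference, array labelled Sirpa-/- minus WT array, of the 31 measured members (red) and of the measured genes in 10 other lists of the interferon pathway (grey), with the number of genes in parentheses and the median as a black line. The medians run from -0.02 for the paralogues to 0.28 for the OAS family, the members lie at 0.03, and 1 gene, Xaf1 at -5.08, is drawn at the edge.

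Markers of blood and tubule cells differed between the arrays, and interferon-stimulated genes are expressed by nearly all cell types. Each list is given by its median difference and by its summed signal, which the brightest markers dominate. The 8 B and plasma cell markers had a median of 0.77, with 8 of 8 above 0. They summed to 3649 on the array labelled Sirpa-/- and 1198 on the WT array (3.05 times), and to 1.82 times without Cd22, the brightest. The 6 erythroid genes were 2.83-fold higher at the median, with 5 above 0, and summed to 48055 on the array labelled Sirpa-/- and 15739 on the WT array (3.05 times, 2.82 without Hbb-bt). Both lists were higher on the array labelled Sirpa-/- with and without their brightest gene. The 9 measured macrophage markers had a median of -0.10, with 3 above 0, and summed to 1.07 times the WT array, but to 0.788 times without Mrc1. The 7 measured T and NK cell markers had a median of 0.30, with 5 above 0, and a sum of 0.988 times, or 1.14 without Nkg7. The 6 measured neutrophil markers had a median of 0.32, with 4 above 0, and a sum of 1.00 times, or 1.36 without Csf3r. For these 3 lists the sums turned or shifted with 1 bright probe, so that they give no single direction. The 7 markers of plasmacytoid dendritic cells, the main producers of interferon alpha, had a median of -0.04, with 3 above 0, and a sum of 0.944 times (1.01 without Siglech). Several of these markers were dim, but Siglech had 32271 on the array labelled Sirpa-/- and 35029 on the WT array and made up most of the sums. Whether the list reads these cells in glomerular RNA was not tested, so neither value is taken as a measure of them. Podocyte markers had a median of 0.10 and a sum of 1.09 times the WT array, endothelial markers -0.09 and 0.927 times, and mesangial markers -0.16 and 0.849 times. The 6 proximal tubule markers all lay below 0, with a median of -0.26 and a sum of 0.713 times. Distal nephron markers had a median of 0.56, with 4 of 6 above 0, and a sum of 1.75 times (1.26 without Umod). Of the markers with a matched probe, 1 was not well above background on either array, Ngp of neutrophils. The part of these cells in the values of Ifi44, Zbp1 and the other members was not tested.

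**Figure D5:**
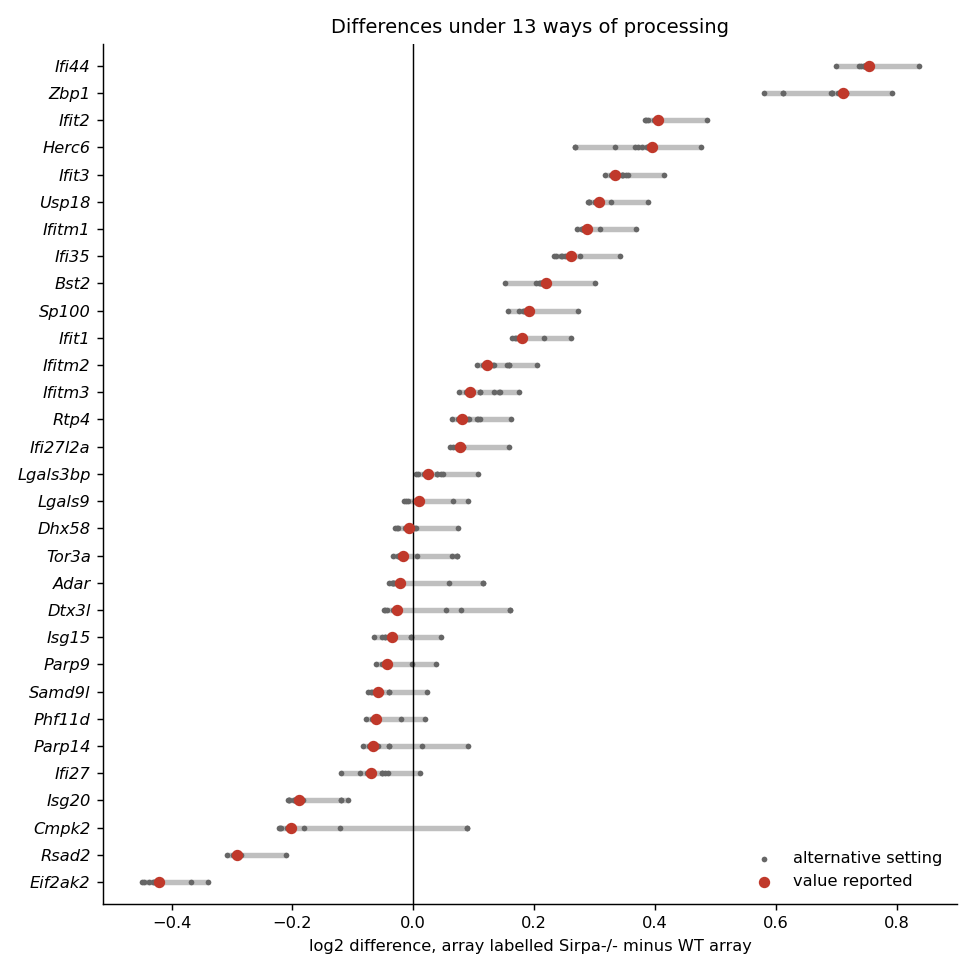
Log2 difference, array labelled Sirpa-/- minus WT array, of the 31 measured members under 13 ways of processing; red symbols are the values reported, small grey symbols the alternatives and bars their range. In all settings in which they were measured, 16 members lay above 0 and 3 (Eif2ak2, Rsad2 and Isg20) below 0. The other 12 took either sign, all near 0 as reported but Cmpk2 (-0.20), whose probes disagree. The settings reprocess the same 2 arrays, and the same count was not made over all genes. The median of all genes was itself 0.08 with spike-in scaling and 0.07 with normexp background correction.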

How the data were processed

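Cy3-labelled glomerular RNA of each group was hybridised to 1 Agilent array, both on slide 1. Per the file headers, the authors deposited fluorescence intensity from Agilent Feature Extraction 11.0.1.1 (the submitters' processing notes name 9.1), processed by background subtraction and detrending, together with 0/1 flags for spot quality, which are other values, and the software's signal error. The authors' deposited table of log2 values was used only as an alternative; the sources used here do not give its steps.

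Unmarked spots of a probe were averaged as log2 processed signal, and the 75th percentile over 39429 gene probes (1109 on the array labelled Sirpa-/-, 1157 on the WT array) was subtracted. A probe counted as measured if on each array over 50% of its spots carried the well-above-background flag, as was so for 86.7% of probes on the array labelled Sirpa-/- and 85.3% on the WT array; 0 gene spots were saturated. Of all gene probes, 27234 (69.1%) were named through RefSeq accessions in a GRCm38.p6 table; the array design uses mm9, so coordinates are given for promoters alone. For a gene well above background on 1 array, a dimmer signal below the lowest one well above background was raised to it. The ratio is then a rough fold and not a strict bound.

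With 1 array per group no test was made, and the number of arrays limits the precision. The members and lists were chosen with earlier results of these data known. All members are named; of each pathway list, the 3 largest differences and Ifnar1, Ifnar2, Stat2, Irf9, Irf7, Ifnb1 and Xaf1; 1 gene of the signalling list that this rule names is not reported here. Ifi44l, Slfn5, Ifit3b, Ifit1bl1, Ifit1bl2, Socs1 and the brightest marker of some cell type lists were named after their values were seen. The steps were tested on simulated arrays with changes larger than those of any measured member, so differences of the members' size were not covered. Software was Python 3.11.15, R 4.3.3 and limma 3.58.1.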

Additional observations from a re-analysis of the deposited data

How the results depend on the processing

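The 12 alternatives changed the scaling (quantile, median, loess on all or on measured probes, spike-in probes, the 75th percentile over measured probes), the background correction (normexp), the filter on dim probes, the way probes of a gene were joined, or used the authors' table. Normexp used median spot intensities, because mean intensities are not in the files, and this and the loess on measured probes were chosen after seeing the data. The median difference of the members lay between 0.01 and 0.11, and was 0.09 with the mean or the median of a gene's probes. It was 0.11 with spike-in scaling (6 dim spike-in probes), which moved the median of all genes to 0.08 as well. With normexp it was 0.08, beside 0.07 for all genes. The count of members at least 2-fold higher was 1 (Epsti1) with no filter on dim probes. The count at least 1.5-fold higher was 1 (Ifi44) with normexp, where Zbp1 gave 0.58. The count above the median of all genes was 17 as reported and 20 with the mean or the median of a gene's probes. The count above 0 was 27 with spike-in scaling. The other counts of members, and of genes whose probes share a sign, were within 1.5 times of the reported count. The sums without the brightest marker were added after seeing the data. Over all genes, 45.1% of those past 1.5-fold were higher on the array labelled Sirpa-/-, and 57.8% with spike-in scaling and 55.6% with normexp. These counts were 791 higher and 962 lower, against 1437 and 1489 with no filter on dim probes, 303 and 396 with a stricter filter and 425 and 339 with normexp. At 2-fold they were 285 and 304, against 670 and 613, 84 and 104, and 113 and 80 in the same order, and 48.4% of them were higher, against 58.1% with spike-in scaling and 58.5% with normexp. Of the members, 12 took either sign, among them Isg15, Cmpk2 and the Parp9, Parp14 and Dtx3l group. No paired analysis was possible because each group has 1 array. Signal over background limits Epsti1, Sp100 and the dimmer probes of Dtx3l and Zbp1.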
